A study of Macaca fascicularis with 18 samples.

Results

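The genes described here had high RNA levels in brain, kidney and liver alike. They were chosen from the deposited RPKM values (read counts scaled by the length of the gene and by the size of the library) by the median per tissue, which had to reach at least 100 RPKM in each of the 3 tissues, with the highest of the 3 medians at most 3 times the lowest. Of 29324 genes in the table, 186 reached 100 RPKM in every tissue and 146 of these also met the ratio. These 146 genes are called the members, and the other 40 are called the abundant tissue-biased genes. A member is referred to by its rank, where rank 1 has the highest level in the tissue where it is lowest. Since the tissue medians chose the members, the levels per tissue and their ratios are given as a description and were not tested.

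RNA was sequenced from cerebral cortex, kidney cortex and liver (called brain, kidney and liver) of 2 female cynomolgus monkeys (Macaca fascicularis), A1 and A2. Both were about 10 years old, and no treatment is named for either. Each animal gave 3 samples of each tissue, so that 18 libraries fall into 6 groups of 3. Samples are written as liver A2-1, with the tissue first, then the animal and its sample number. The 3 samples of a group are pieces of the same organ of 1 animal, so that every comparison between the animals compares these 2 individuals, and its p-values measure only the spread between such pieces.

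Genes that are expressed in every tissue are commonly called housekeeping genes, and a high level is not part of that meaning. They typically encode parts of the ribosome, of the respiratory chain of mitochondria, of the cytoskeleton and of protein folding and turnover, which nearly all cells need. Some of them serve as reference genes for scaling measurements, a use that depends on how far their level moves between tissues and individuals. Which of the members belong to these classes could not be determined, because 0 of the 29324 Ensembl identifiers matched the table of 40596 RefSeq genes at hand and the deposited table pairs no identifier with a symbol. For the same reason the tissue labels could not be checked against marker genes, and 4 identifiers at most are printed.

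Over the 18 libraries the summed RPKM ranged from 441288 to 648652, and between 10287 and 13246 genes had at least 1 RPKM. Liver A2-1 stood apart from the rest. Across the 15207 genes tested, its median Pearson correlation with the other 5 liver samples was 0.66 and with the 6 kidney samples 0.77, while within a group pairs of samples correlated with a median of 0.99. The rule left this sample out, and the comparisons below rest on the other 17 samples unless stated otherwise. The RPKM table holds no read totals for single libraries, so that no counting error could be attached to single values. In pieces of tissue, fewer cells of a type and less RNA per cell cannot be told apart.

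The members spanned a wide range of levels. Their lowest tissue median ran from 101 RPKM to 13611 RPKM, with a median of 180. It was at least 1000 RPKM for 10 members and below 200 RPKM for 84. In their lowest tissue, ranks 2 to 10 had between 1184 and 5579 RPKM. At the limit of 100 RPKM, the 3 members just inside had lowest medians of 101, 102 and 103 RPKM, and the 3 genes just outside had 99.5, 99.4 and 99.1 RPKM. At the limit of the ratio, the 3 members just inside stood at 2.99, 2.94 and 2.92, and the 3 genes just outside at 3.03, 3.03 and 3.06. Neither limit thus falls into a gap of the distribution.

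**Figure D1:**
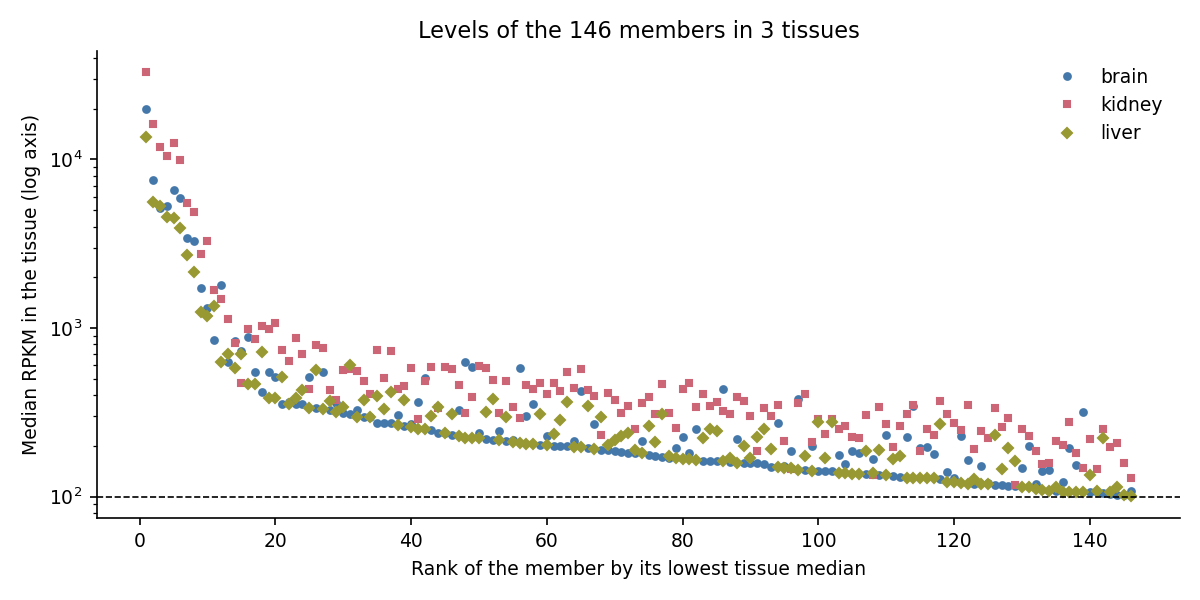
Median RPKM of each of the 146 members in brain, kidney and liver (log axis) against the rank of the member. The dashed line marks the limit of 100 RPKM. Ranks 1 to 10 lie above 1000 RPKM in every tissue, and the kidney medians lie above the others for most members.

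The member of rank 1 had 18102, 20201 and 20303 RPKM in brain A1 and 19792, 26566 and 18195 RPKM in brain A2. In kidney it had 34039, 33807 and 32265 RPKM in A1 and 21084, 34495 and 24500 RPKM in A2. In liver it had 17466, 13611 and 15099 RPKM in A1 and, liver A2-1 left aside, 13044 and 12937 RPKM in A2. Its values in brain and kidney overlapped, while all its liver values lay below its brain values. This gene alone held between 2.51% and 6.07% of the summed RPKM of a library.

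The share of the summed RPKM that fell to all 146 members was 21.6% ± 1.23 in brain (SD, n = 6), 29.7% ± 1.88 in kidney (SD, n = 6) and 15.1% ± 1.04 in liver (SD, n = 5). Samples of different tissues did not overlap, since the 6 kidney samples began at 27.3%, the 6 brain samples lay between 20.5% and 23.6%, and every liver sample was lower. Liver A2-1 had 13.6%. Ranks 1 to 10 made up most of it, with 13.6% ± 1.16 in brain, 19.6% ± 2.22 in kidney and 8.61% ± 1.06 in liver. The other 136 members together held 7.97% ± 0.257 in brain, 10.1% ± 0.658 in kidney and 6.53% ± 0.555 in liver. The share of ranks 1 to 10 varied more between samples than that of the other members, as the plot of shares by sample shows.

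**Figure D2:**
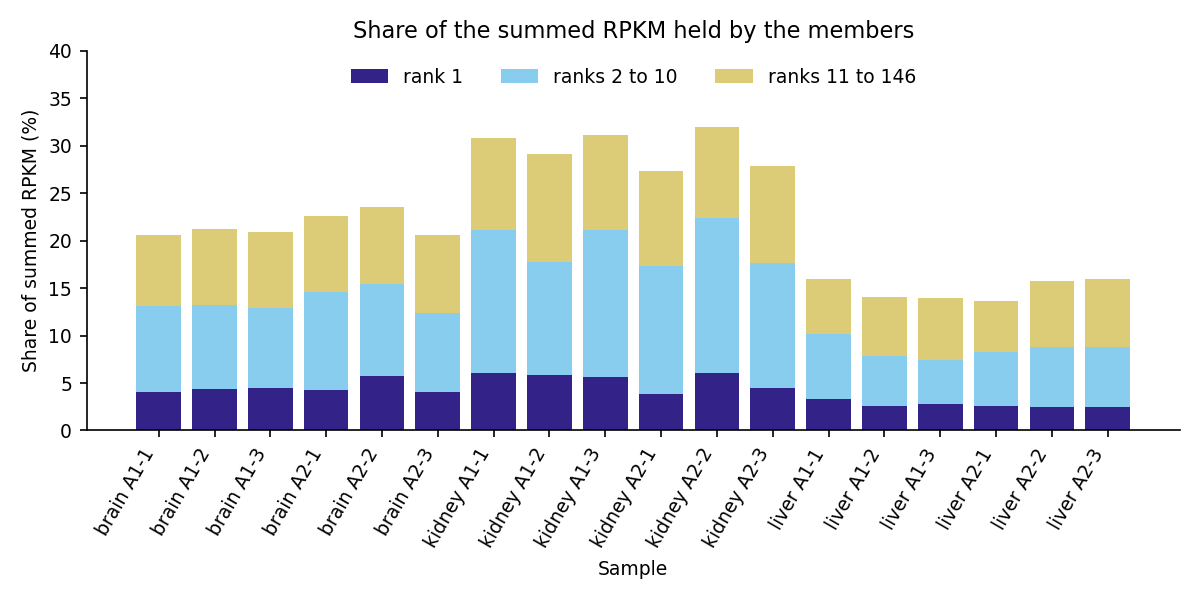
Share of the summed RPKM (percent) held by the members in each of the 18 samples, split into rank 1, ranks 2 to 10 and ranks 11 to 146. The kidney bars reach 27.3% to 32.0%, above all brain and liver bars, and ranks 1 to 10 hold the larger part of each bar.

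Within the limit of 3, the tissues were not equal. The ratio of the highest to the lowest tissue median had a median of 2.06 over the members, was at most 1.5 for 20 of them and at most 2 for 61. Kidney had the highest median for 126 members, brain for 15 and liver for 5. Liver had the lowest for 77, brain for 66 and kidney for 3. All of ranks 1 to 10 were highest in kidney. The most even member, rank 29, had 316 RPKM in liver, 357 RPKM in brain and 375 RPKM in kidney at the median, a ratio of 1.19. Its 17 values ran from 305 to 396 RPKM, and liver A2-1 had 207 RPKM. The next smallest ratios were 1.24 (rank 108), 1.28 (ranks 146 and 96) and 1.31 (rank 28). The liver median of rank 96 was a value of A1, and its liver values in A2 were 55.1 and 50.9 RPKM, liver A2-1 left aside.

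This order depends on how the libraries are scaled. Kidney was still highest for 113 members and liver lowest for 93 with equal sums, and for 103 and 85 with quantile normalized values, but median-of-ratios factors turned it. After division by median-of-ratios factors, which set the typical gene to the same level in all libraries, liver had the highest median for 119 members and brain the lowest for 124. Kidney over liver then had a median log2 difference of −0.44 across the members, against 0.80 in the deposited values, and of 0.03 against 0.90 across all genes tested. Kidney lay above brain for 124 members after this scaling and for 131 before it. The median log2 difference of liver over brain moved from −0.05 to 1.04 over the members and from −0.88 to −0.08 over all genes. In these 2 scalings the members stood higher in liver against brain than the typical gene, which their choice fixes in part, and with quantile normalized values they stood lower, at −0.23 against 0.02.

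**Figure D3:**
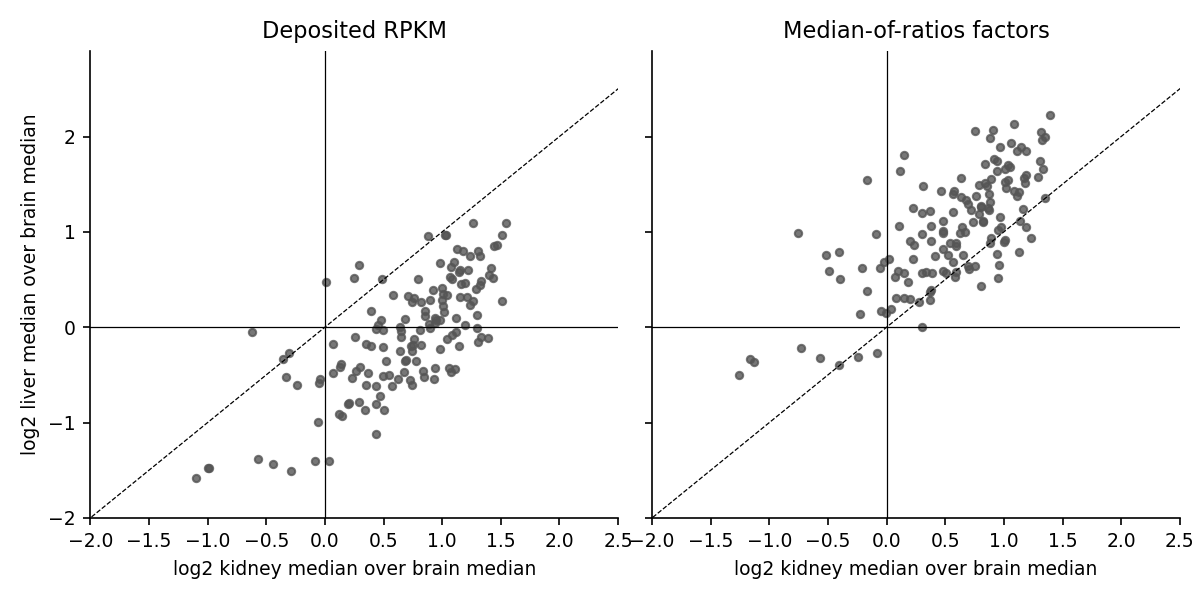
Log2 ratio of the liver median to the brain median against the log2 ratio of the kidney median to the brain median for the 146 members, in the deposited RPKM values (left) and after division by median-of-ratios factors (right). Points below the dashed line are higher in kidney than in liver, which holds for 138 members on the left and 21 on the right.

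Membership was affected by the scaling as well. With median-of-ratios factors 160 genes met the rule, of which 107 were members. With quantile normalized values 145 genes met it, 123 of them members. From the samples of A1 alone 128 genes met it, of which 125 were members, and from those of A2 alone 146 genes, of which 134 were members.

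The SD between samples of a group on the log2(RPKM + 1) scale, pooled over the 6 groups, had a median of 0.14 over the members, 0.12 over the abundant tissue-biased genes and 0.14 over all 15207 genes tested. Its highest value was 0.49 among the members and 2.40 among all genes. The coefficient of variation had a median over the members between 3.70% (liver A2, 2 samples) and 12.5% (kidney A1). Over all genes tested it lay between 8.77% and 13.6%, and it was higher than over the members in each of the 6 groups. Over the abundant tissue-biased genes it was lower than over the members in every group but liver A1, with 4.88% in brain A1 and 9.23% in kidney A1. The pseudocount lowers the former measure for genes of low level and leaves the latter as it is.

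The steadiest member was rank 118, with a pooled SD of 0.04. It had 119, 121 and 124 RPKM in brain A1 and 419, 444 and 430 RPKM in kidney A1. The least steady was rank 122, with a pooled SD of 0.49. It had 347, 494 and 227 RPKM in kidney A1, and 50.9, 85.5 and 119 RPKM in liver A1. A level that is high in all tissues did not by itself mean a small spread, since ranks 3 and 8 had pooled SDs of 0.37 and 0.29, the next largest. The member of rank 3 had 11586, 6851 and 12020 RPKM in kidney A1 and 12170, 18594 and 11283 RPKM in kidney A2.

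Many pairs of members also moved together within groups, though not all members did. After the mean of its group had been taken from each value, the Pearson correlation across the 17 samples had a median of 0.41 over the 10585 pairs of members and of 0.03 over all pairs of genes tested. The points share the libraries and their scaling, and the value is a description. Individual pairs of members ran from −0.90 to 0.98. Without the run of neighbouring identifiers described below, the median was 0.46 over 9591 pairs.

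The rule used no difference between the animals. This difference was tested with limma's moderated test on log2(RPKM + 1) over all 15207 genes (Benjamini-Hochberg adjustment). In liver, however, the median of the rule came from 3 samples of A1 and 2 of A2. It was a value of A1 wherever the animals did not overlap, so that the liver tests are not independent of the choice. A gene was called when its adjusted p was under 0.05 and its log2 difference was 1 or more in size. By this rule 1 member was called in brain, where 1.76% of all genes tested were called, 2 members in kidney, where 2.56% were, and 2 members in liver, where 3.08% were. As shares of the members these are 0.685%, 1.37% and 1.37%. The 2 called in liver, ranks 56 and 96, fell to 88.4 and 50.9 RPKM in liver A2, below the limit of 100 RPKM that their medians met. Of the 40 abundant tissue-biased genes, 1 was called in each tissue. All 5 called members were lower in A2, and 0 were higher, where 0.855% of all genes were called as higher in brain, 1.10% in kidney and 1.72% in liver. As lower in A2, 0.901% of all genes were called in brain, 1.46% in kidney and 1.37% in liver, near the members' shares. No member was called in more than 1 tissue in this setting, while with quantile normalized values rank 84 was. With all 18 samples brain had 0 called members, kidney 2 and liver 4, of which 2 were higher and 2 lower in A2, where 1.41%, 1.69% and 4.14% of all genes were called.

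Most members differed by much less. The log2 difference was below 0.5 in size for 94.5% of the members in brain, 90.4% in kidney and 79.5% in liver, against 88.9%, 87.6% and 85.1% of all genes tested. The median log2 difference of A2 minus A1 was 0.12 in brain, −0.08 in kidney and 0.24 in liver, against −0.02, −0.02 and 0.06 over all genes.

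**Figure D4:**
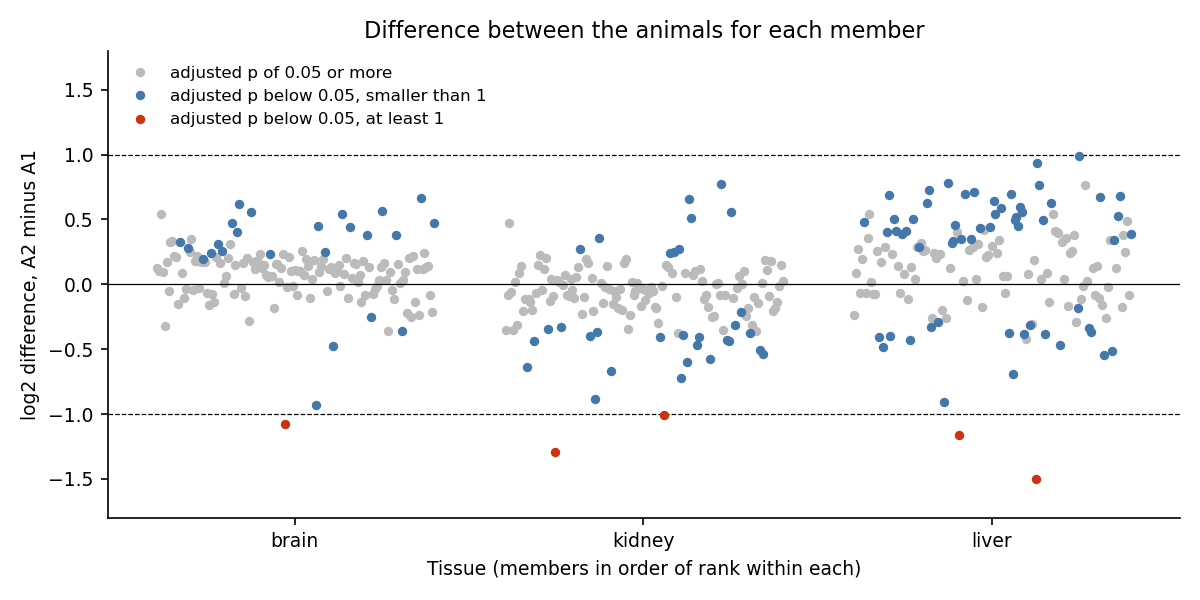
Log2 difference of A2 minus A1 for each of the 146 members in each tissue, in order of rank from left to right. Red points passed the adjusted p and a difference of at least 1 (dashed lines), blue points the adjusted p alone. The 5 red points all lie below −1, and most blue points in liver lie above 0.

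With the adjusted p below 0.05 alone, 25 members passed in brain, where 20.7% of all genes passed, 33 in kidney, where 24.0% passed, and 60 in liver, where 23.5% passed. The members' shares were 17.1%, 22.6% and 41.1%. Of the 25 in brain, 20 were higher in A2, or 13.7% of the members against 9.41% of all genes tested, and 5 were lower, or 3.42% against 11.3%. Of the 60 in liver, 40 were higher in A2, or 27.4% against 14.3%, and 20 were lower, or 13.7% against 9.16%. In kidney the balance was the other way, with 24 members lower in A2, or 16.4% against 13.4%, and 9 higher, or 6.16% against 10.7%. The sign of the members' median difference in each tissue stayed the same under median-of-ratios, quantile and equal-sum scaling, but its size moved, in liver to 0.11 with median-of-ratios factors and in kidney to −0.03 with quantile normalized values and −0.04 with equal sums. In brain the samples of A2 lay above all of A1 for 48 members, or 32.9% where 17.1% of all genes did, and below them for 11, or 7.53% where 20.9% did. The abundant tissue-biased genes had shares near those of the members, 35.0% above and 7.50% below. In liver 37.5% of them passed the adjusted p, with 17.5% higher and 20.0% lower in A2, and their animals did not overlap for 55.0%, with A2 above for 27.5%. The samples of the animals did not overlap for 43 members in kidney (29.5%, all genes 36.0%) and for 111 in liver (76.0%, all genes 51.5%). In liver the 2 samples of A2 lay above the 3 of A1 for 73 members, or 50.0%, where 33.4% of all genes tested did so, and below them for 38, or 26.0%, where 18.2% did so.

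The largest difference in the liver was that of ENSMFAG00000032081, rank 96. Its medians in the 3 tissues were nearly equal, with a ratio of 1.28, but its liver median of 148 RPKM was a value of A1. The gene had 158, 149 and 148 RPKM in liver A1 and 55.1 and 50.9 RPKM in liver A2. In kidney it had 166, 182 and 196 RPKM in A1 and 119, 112 and 126 RPKM in A2, and in brain 173, 187 and 187 RPKM in A1 and 185, 211 and 212 RPKM in A2. In A2 its levels were thus not even, since its liver values lay below all its brain and kidney values. The animals did not overlap in liver and kidney and overlapped in brain. Its log2 difference was −1.50 ± 0.09 in liver (SE, limma, adjusted p = 8.92e-09) and −0.60 ± 0.08 in kidney (SE, limma, adjusted p = 6.22e-05). In brain it was 0.15 ± 0.08 (SE, limma, adjusted p = 0.201).

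ENSMFAG00000045720, rank 84, differed in the same direction in all tissues. It had 206, 212 and 220 RPKM in brain A1 and 108, 106 and 119 RPKM in brain A2. In kidney it had 432, 578 and 502 RPKM in A1 and 244, 256 and 244 RPKM in A2, and in liver 253, 263 and 262 RPKM in A1 and 155 and 166 RPKM in A2. The animals did not overlap in any tissue, and liver A2-1, at 159 RPKM, lay among the A2 values. The log2 difference was −1.01 ± 0.09 in kidney (SE, limma, adjusted p = 7.66e-07), −0.93 ± 0.09 in brain (SE, limma, adjusted p = 3.51e-06) and −0.69 ± 0.10 in liver (SE, limma, adjusted p = 1.04e-04). The call in kidney, just past the limit of 1, was lost without kidney A1-2 (−0.91), among others, while the adjusted p stayed below 0.05 under every alternative run. With quantile normalized values the kidney call stood and the gene was also called in brain (−1.20).

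ENSMFAG00000031293, rank 119, was higher in A2 in every tissue. It had 111, 123 and 124 RPKM in brain A1 and 187, 155 and 190 RPKM in brain A2. It had 199, 291 and 259 RPKM in kidney A1 and 374, 328 and 391 RPKM in kidney A2, and 106, 112 and 122 RPKM in liver A1 against 220 and 233 RPKM in liver A2. Again no tissue showed an overlap, and liver A2-1 had 262 RPKM. The log2 differences of 0.56 ± 0.12 in brain (SE, limma, adjusted p = 0.00412), 0.56 ± 0.12 in kidney (SE, limma, adjusted p = 0.00381) and 0.99 ± 0.14 in liver (SE, limma, adjusted p = 7.56e-05) were below 1. In liver the difference passed 1 in 4 of 26 alternatives, among them all 18 samples (1.06), and then counted as called.

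The other 3 called members each differed in 1 tissue by at least 1. Rank 27 had 1207, 1343 and 1014 RPKM in kidney A1 and 505, 466 and 477 RPKM in kidney A2, a log2 difference of −1.29 ± 0.15 (SE, limma, adjusted p = 1.51e-05), while its brain values overlapped. Rank 56 had 222, 208 and 209 RPKM in liver A1 and 88.4 and 101 RPKM in liver A2, a difference of −1.16 ± 0.10 (SE, limma, adjusted p = 4.97e-07). With quantile normalized values this difference was −0.87 and the call was lost. In kidney rank 56 had 335, 401 and 418 RPKM in A1 and 237, 247 and 239 RPKM in A2, without overlap and with a difference of −0.67 (limma, adjusted p = 6.23e-05). Rank 68 had 256, 243 and 328 RPKM in brain A1 and 118, 138 and 131 RPKM in brain A2, a difference of −1.08 ± 0.11 (SE, limma, adjusted p = 8.13e-06). The call of rank 68 was lost with all 18 samples, where the difference was still −1.08 (limma, adjusted p = 0.373), and without brain A1-3, where the difference was −0.95.

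Over the 3 tissues together, 6 members lay above A1 in every sample of A2 in all tissues, which is 4.11% of them against 2.68% of all genes tested. In the other direction 4 members lay below A1 throughout, which is 2.74% against 2.20%. By the sign of the fitted difference alone, 43 members were higher in A2 in all tissues (29.5%, all genes 16.9%) and 20 were lower (13.7%, all genes 14.5%). Of the abundant tissue-biased genes 32.5% were higher and 22.5% lower. These 10 members are ranks 40, 50, 87, 89, 98 and 119 in the former direction and ranks 49, 84, 93 and 129 in the latter. For the difference averaged over the tissues limma called 0 members with a difference of at least 1, where 0.690% of all genes were called, 0.276% as higher in A2. By the adjusted p alone 67 members passed (45.9%, all genes 33.9%), and 20 of the 40 abundant tissue-biased genes did (50.0%). At an unadjusted p below 0.05 there were 81 members (55.5%, all genes 43.7%) without regard to size and 0 with a difference of at least 1 (all genes 0.789%).

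An F test in limma asked whether the difference between the animals varied with the tissue. It passed an adjusted p of 0.05 for 38 members, which is 26.0%, where 33.7% of all genes tested passed. Of the 40 abundant tissue-biased genes 18 passed, or 45.0%. With all 18 samples 16 of the 146 members passed, where 16.1% of all genes did. Leaving out single samples moved the count between 18 without liver A2-3, or 12.3% against 25.4%, and 60 without kidney A1-1, or 41.1% against 34.3%. The members' share lay below that of all genes in 23 of 26 alternatives. It lay above it without kidney A1-1, without liver A1-3 (34.9% against 34.1%) and with the sample number as a block (34.2% against 33.7%). Of the 5 called members, ranks 27, 56, 68 and 96 were among the 38 and rank 84 was not (adjusted p = 0.140 in limma's F test).

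Liver A2-1 offers levels of the members in a library that the rule did not use. There is 1 such library, so that no test was made. Against the mean of the other 5 liver samples the members had a median log2 ratio of 0.09 in liver A2-1, which turned to −0.14 with median-of-ratios factors and to −0.22 with equal sums, and 13 of the 146 (8.90%) were 2-fold or more apart, against 26.0% of all genes tested and 27.5% of the 40 abundant tissue-biased genes. Of these 13 members, 12 were lower and 1 was higher, while 2159 of all genes were higher and 1791 lower, and 6 of the abundant tissue-biased genes were higher and 5 lower. The 5 reference samples come from both animals, so that a difference between the animals enters these ratios. Rank 56, among the 12, had 77.7 RPKM against a mean of 166 RPKM, but its lowest liver value in the other A2 samples was 88.4 RPKM. The other 5 samples chose both the members and the abundant tissue-biased genes at 100 RPKM or more. This may have favoured falls, which was not tested. In the other liver samples, each set against the remaining 4, between 0 and 2 members were 2-fold or more apart. At least 100 RPKM was reached by 127 members in liver A2-1 and by 130 to 145 members in the others, whose medians the rule used. Over all genes tested 300 reached it in liver A2-1 and 529 to 579 in the others.

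The members of ranks 1 to 10 stayed close to the other liver samples, with log2 ratios between 0.05 and 0.52. The lowest ratios were those of rank 91, with 15.4 RPKM in liver A2-1 and a mean of 215 ± 38.2 RPKM elsewhere in liver (SD, n = 5), and of rank 68, with 25.6 RPKM and 300 ± 25.8 RPKM (SD, n = 5). Both were below the lowest value of any other sample in the 3 tissues, 119 and 118 RPKM. In all, 27 members lay below and 1 above all 17 other samples. With median-of-ratios factors these were 13 and 29, and with equal sums 53 and 0. The same was not counted over all genes. Inside the range of the other 5 liver samples lay 34.9% of the members, against 25.1% of all genes tested. ENSMFAG00000041894, rank 139, was the 1 member at least 2-fold higher, with 525 RPKM against 112 ± 26.6 (SD, n = 5). Its 525 RPKM also exceeded its highest value in brain, 399 RPKM, where it was otherwise highest. With equal sums it did not lie above all 17 other samples.

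**Figure D5:**
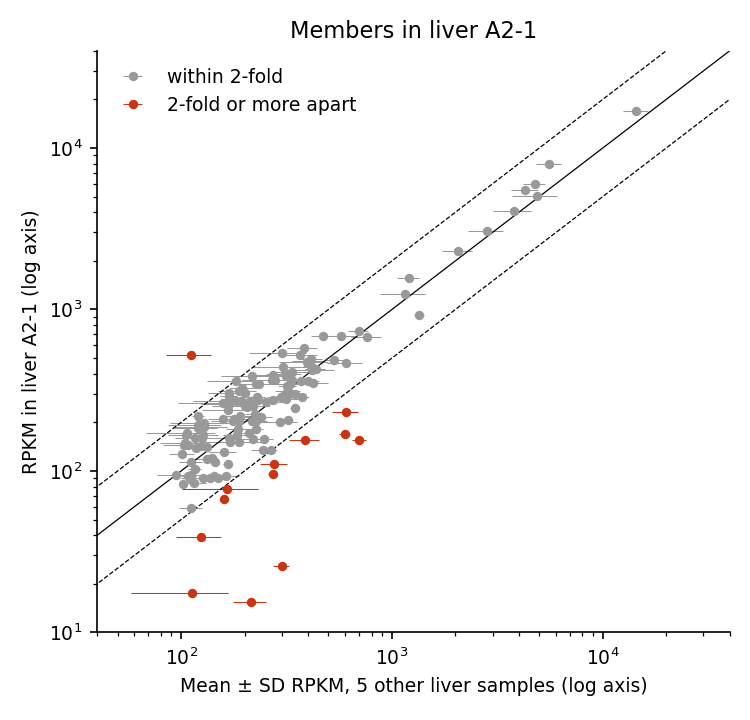
RPKM of each member in liver A2-1 against its mean ± SD in the other 5 liver samples, both on log axes. The solid line marks equal values and the dashed lines a 2-fold difference. Red points are the 13 members 2-fold or more apart, of which 12 lie below the lines and 1 above.

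After ranks 91 and 68, the lowest ratios in liver A2-1 were those of rank 96 with 17.6 RPKM against 112 ± 54.2, rank 15 with 156 RPKM against 697 ± 52.9 and rank 31 with 171 RPKM against 597 ± 35.8 (SD, n = 5). Rank 96 was also the member farthest apart between the animals in liver.

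Over the members the Pearson correlation of log2 values between liver A2-1 and the other liver samples had a median of 0.83, and with the kidney samples of 0.91. Pairs of kidney and other liver samples had a median of 0.93 over the members and of 0.71 over all genes tested. These correlations run across genes of 1 pair of libraries, genes are not independent replicates, and the choice of the members raises them between tissues.

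Several of the most abundant members carry neighbouring identifiers. A run of 7 members fell within 13 consecutive identifier numbers, and 6 of the 7 were among ranks 1 to 10, the seventh being rank 19. This run was noticed after the values had been seen. The run held between 3.33% and 12.4% of the summed RPKM, from 9.30% to 12.4% in kidney, 6.10% to 7.91% in brain and 3.33% to 5.17% in liver, and 4.25% in liver A2-1. Within groups its 7 members varied together, with a median correlation of 0.77 over 21 pairs after group means were removed and a lowest value of 0.50. They did not follow the other members throughout. In kidney A1-2 the median log2 deviation from the group mean was −0.19 for the run and 0.18 for the other members. In liver A1-1 it was 0.29 and −0.08, while in brain A1-2 both were positive (0.01 and 0.06). Of the other 6 genes in these 13 numbers, 5 had at least 288 RPKM at the median in every tissue and missed the rule by ratios of 3.03 to 3.59, so that the limit of 3 passes through this set of neighbours. Whether neighbouring numbers mean neighbouring genes was not examined.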

How the data were processed

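The 18 libraries, 3 per animal and tissue, were made by the authors from total RNA and read from both ends. The labels and the study's methods name different library kits, of which only the latter's is stranded, and whether strand was used in counting is not given in the sources used here, so that reads of overlapping genes on opposite strands may not be separated. Reads were mapped by the authors to the cynomolgus genome of Ensembl version 92, using STAR, and 1 table of RPKM values on a linear scale was deposited. Its title refers to unique reads. Whether Cufflinks or featureCounts made it is not given in the sources used here. Reads shared by near-identical genes may be lost or split in such values. The per-sample columns left unused numbered 0. No column was a copy of another.

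Members were found by the rule from 17 samples. The 15207 genes that reached 1 RPKM in 3 or more of these were transformed to log2(RPKM + 1), where fold changes of low genes are understated, and fitted with limma 3.58.1 in R 4.3.3 (6 group means, intensity trend, Benjamini-Hochberg adjustment over all genes). The study's methods state no test between animals. The fit was tested on simulated data before use. Python 3.11.15 was used for the rest. The members, tests and lists were chosen with earlier results of these data known. Genes to be named were the highest, the most even, the steadiest and least steady members, those at the limits, those called between animals and those farthest apart in liver A2-1. Lists by gene symbol, reference genes and markers could not be applied and have no result. The run of neighbouring identifiers and the 4 printed identifiers were chosen after the values were seen. Alternatives to the pseudocount, filter, scaling, trend, threshold, block and samples were run.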

Additional observations from a re-analysis of the deposited data

Results flagged for a closer look

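In each tissue, 5 summary measures per sample and the levels of 7 members were searched for an extreme sample, one that lay farther from its neighbour than 0.625 of the range of the 6 samples. This held in 7 of 36 groups. Chance flags about 1 in 20 groups of independent samples, but these samples are pieces of 2 animals and the measures are linked. Rank 68 was searched as a member called between the animals, and ENSMFAG00000041894 was named for its level in liver A2-1. The number of such groups was therefore not compared with chance. The member of rank 1 held 5.70% of the summed RPKM in brain A2-2 and between 4.01% and 4.48% in brain otherwise. Ranks 11 to 146 held 7.47% in brain A1-1, against 7.97% to 8.19%, and 11.4% in kidney A1-2, against 9.58% to 10.2%. The median level of the members was 183 RPKM in brain A1-1, against 214 to 231 RPKM, and 443 RPKM in kidney A1-2, against 350 to 382 RPKM. In liver A2-1, rank 68 had 25.6 RPKM, against 263 to 334 RPKM, and ENSMFAG00000041894 had 525 RPKM, against 86.3 to 153 RPKM.

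The difference between the animals varied with the tissue for 38 members (interaction, F test in limma), or 26.0%, below the 33.7% of all genes tested. Among the members called between the animals, the adjusted p of limma's F test was 2.98e-04 for rank 27, 1.09e-05 for rank 56, 3.38e-04 for rank 68 and 3.71e-07 for ENSMFAG00000032081.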

How the results depend on the processing

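Between animals, brain had 1 called member, kidney 2 and liver 2. With the adjusted p alone they numbered 25, 33 and 60, and 67 instead of 0 for the mean over the tissues. Quantile normalized values gave 2 in brain and 1 in liver, and all 18 samples gave 0 in brain and 4 in liver, where 1.70%, 3.33%, 1.41% and 4.14% of all genes were called. In kidney, 1 was called with a pseudocount of 10, with median-of-ratios factors and with equal sums (all genes 0.677%, 2.15% and 2.42%). Leaving out single samples gave 0 to 1 members in brain (0 without brain A1-3), 1 to 2 in kidney (1 without kidney A1-2, A2-1 or A2-3), 2 to 3 in liver and 0 for the mean, where 1.70% to 2.05% of all genes were called in brain, 2.22% to 2.59% in kidney and 2.81% to 3.65% in liver. Where liver A2-2 or A2-3 was left out, the lone sample was assumed to vary like the other groups. The interaction was found for 38 members, for 25 without a filter (17.1%, all genes 24.0%), for 16 with all 18 samples and for 18 to 60 with single samples left out (25 without brain A1-3, where 28.3% of all genes passed, 60 without kidney A1-1, 22 without liver A1-2, where 28.1% of all genes passed, 25 without liver A2-2, where 30.5% did, and 18 without liver A2-3). Of the 8 same-numbered pairs of samples from the 2 animals, 1 had deviations correlated above 0.1 (range −0.15 to 0.22). Deviations within such small groups sum to 0, so that this cannot settle whether a number marks shared processing. With the sample number as a replicate block, 50 members passed the interaction and the counts of 1, 2, 2 and 0 stood. The rule gave 285 members with a lowest median of at least 50 and 62 of at least 200, 61 with a ratio of at most 2, and 142 to 147 with single samples left out. The median log2 ratio in liver A2-1 was −0.14 with median-of-ratios factors and −0.22 with equal sums instead of 0.09. The cause of these changes was not tested. None of the 10 single differences examined reversed. The table holds no counts, so that the counting error behind a value is unknown.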
